A study of Rattus norvegicus with 12 samples.

Results

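Dorsal root ganglia of rats given cisplatin together with CYM-5478, which activates S1P2, a receptor for the lipid sphingosine 1-phosphate, were compared with ganglia of rats given cisplatin without it. The comparison takes all 4 libraries labelled cisplatin with CYM-5478 and all 4 labelled cisplatin, 8 of the 12 libraries of the series, and no measured value entered that choice. The other 4 libraries, from vehicle rats, are given beside them as a reference level. Of 25252 genes in the deposited table, 16753 had a mean of 0.5 FPKM or more and were tested. FPKM is a fragment count scaled by transcript length and library size, and it was summed here over the transcripts of a gene.

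The rats were Sprague Dawley with a wild genotype, and the design text names 4 biological replicates in each of 3 treatment groups. Vehicle rats had saline holding 0.1% Tween 20 and 1% DMSO. Cisplatin, a platinum drug that crosslinks DNA, went to both other groups by intraperitoneal injection at 3 mg/kg once a week, on days 0, 7 and 14. In the group called the CYM-5478 group below, the agonist was injected intraperitoneally each day from day -1 to day 20 as well. Its dose is 0.1 mg/kg in the sample labels and 1 mg/kg in the treatment protocol. For this group 0.1% Tween is given as well, and no carrier is given for the cisplatin group. Effects of the agonist, its carrier and the daily injection therefore cannot be told apart in this comparison. The series has no group with the agonist alone, so what the agonist does in ganglia free of cisplatin cannot be told apart from what it does in their presence. The labels give no age, sex or spinal level of the ganglia and say nothing about pooling. The study asks whether activating S1P2 protects sensory nerves against cisplatin.

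A dorsal root ganglion holds the cell bodies of sensory neurons, each wrapped in satellite glia, with Schwann cells along the axons, fibroblasts, blood vessels and macrophages around them. Its vessels lack a tight blood-nerve barrier, so platinum drugs reach the neuron cell bodies and bind their DNA, and sensory neuropathy limits the use of cisplatin. Sphingosine 1-phosphate is a lipid signal that acts on a family of G protein-coupled receptors, and S1P2, encoded by S1pr2, couples to G12/13 proteins, which act on the actin cytoskeleton.

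Promoters of 5 genes that recur below are shown first because their genes stood on the neuronal side (Prph, Scg2, Calca), in sphingosine 1-phosphate metabolism (Sgpp2) or on the vessel wall side (Tbx18) of the comparison. They were picked after their values were seen. Of the 30 genes with the largest named changes, 20 had an entry in the RefSeq promoter table (build GRCr8), which was matched by symbol. Each line gives the 160 bases before the annotated start, 5′ to 3′ on the strand of the gene. Capitals mark 4 motifs searched on both strands. They are the cAMP response element TGACGTCA, the shorter TGACG found within it, the TATA box written TATAAA and the GC box written GGGCGG.
Prph: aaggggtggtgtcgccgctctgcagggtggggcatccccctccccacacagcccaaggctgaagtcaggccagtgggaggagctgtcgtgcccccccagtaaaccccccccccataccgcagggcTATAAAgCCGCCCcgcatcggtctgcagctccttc
Scg2: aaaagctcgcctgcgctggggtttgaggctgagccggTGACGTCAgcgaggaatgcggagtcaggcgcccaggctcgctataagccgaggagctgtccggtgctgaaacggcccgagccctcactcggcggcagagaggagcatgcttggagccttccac
Calca: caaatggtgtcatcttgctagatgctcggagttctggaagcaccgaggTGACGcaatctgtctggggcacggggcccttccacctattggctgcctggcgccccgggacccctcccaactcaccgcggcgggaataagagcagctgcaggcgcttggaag
Sgpp2: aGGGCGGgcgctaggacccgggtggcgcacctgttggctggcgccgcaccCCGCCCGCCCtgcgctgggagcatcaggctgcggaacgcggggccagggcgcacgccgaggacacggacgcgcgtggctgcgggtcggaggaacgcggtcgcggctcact
Tbx18: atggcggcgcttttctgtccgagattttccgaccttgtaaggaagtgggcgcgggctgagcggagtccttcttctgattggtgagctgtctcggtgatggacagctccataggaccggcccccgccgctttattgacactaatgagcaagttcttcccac
In GRCr8, the window of Prph lay at chr7:132097129-132097288 (plus strand), that of Scg2 lay at chr9:88256867-88257026 (minus strand), that of Calca lay at chr1:178317530-178317689 (minus strand), that of Sgpp2 lay at chr9:87211704-87211863 (plus strand) and that of Tbx18 lay at chr8:97559966-97560125 (minus strand).

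TATAAA began 35 bases before the start of Prph, followed by GGGCGG on the other strand at 28 bases. The full TGACGTCA began 123 bases before the start of Scg2 and contains TGACG on both strands, while Calca held TGACG alone at 112 bases. Sgpp2 held GGGCGG at 159, 110 and 106 bases, of which those at 110 and 106 overlap and lie on the other strand, and Tbx18 held none of the 4 motifs. Among 33469 RefSeq promoter windows of the same length, 13.9% held TGACG, 1.38% TGACGTCA, 8.49% TATAAA and 26.6% GGGCGG. These letters describe the windows and carry no statement on binding.

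In units of 1000 FPKM, libraries of the CYM-5478 group summed to 606 ± 13.98 and those of the cisplatin group to 657 ± 14.8 (SD, n = 4 each), a difference of -51.9 (exact permutation test, two-sided p = 0.029, the lowest value this design allows). Vehicle libraries summed to 602 ± 7.06. Without mitochondrially encoded genes the difference was -30.987 (exact permutation p = 0.057). After scaling to the median gene, the median log2 change over all tested genes was -0.02. Read counts were not used here, so absolute depth is unknown. Judged by the size of the smallest steps between values, and with vehicle replicate 1 as the unit, the depth of CYM-5478 replicate 2 was 1.54 and that of the other libraries 0.90 to 1.18. Libraries also differed in genes of skeletal muscle and neutrophils, and the source of that RNA was not tested. The skeletal muscle score (the mean log2 difference from vehicle over a list) was 1.33 in cisplatin replicate 2 and 0.67 in replicate 3, and the neutrophil score ran from -1.27 in CYM-5478 replicate 3 to 1.68 in replicate 2.

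With CYM-5478 added to cisplatin, 941 of 16753 genes (5.62%) passed an adjusted p of 0.05 in limma, 759 higher (4.53%) and 182 lower (1.09%). The genes that rose did so by a median log2 change of 0.51, from 0.15 to 1.46, and those that fell by a median of -0.33, from -0.17 to -0.87. On the log2(FPKM + 0.5) scale of the fit, which understates the change of low genes, 4 of the 941 differed more than 2-fold. The 4 libraries of the 2 groups did not overlap for 914 of them, and for 2693 of all tested genes (16.1%, with 10.4% higher and 5.68% lower). The rises described below include genes of sensory neurons, their channels and their vesicles, and the falls include genes of vessel walls and connective tissue. Calls counted in each list below stand beside the 4.53% higher and 1.09% lower of all genes. Against vehicle, the CYM-5478 group had 0 genes past the threshold in limma (970 of 16753, 5.79%, at an unadjusted p under 0.05), and cisplatin libraries had 1794 (10.7%). These comparisons share libraries, so their values are set side by side below and not related to each other statistically. For some genes below, CYM-5478 libraries lay wholly above or below the vehicle libraries. The share of all genes with that pattern was not counted, so it describes those genes only.

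The calls lay close to the threshold, with a lowest adjusted p of 0.0395 (4122 genes, 24.6%, had an unadjusted p under 0.05, and 9.56% were lower with such a p). Leaving out vehicle replicate 1, cisplatin replicate 1, cisplatin replicate 4 or CYM-5478 replicate 2, 3 or 4 left 0 genes past it in limma, with 3011 to 4031 still at an unadjusted p under 0.05. Leaving out vehicle replicate 3 or 4 left 436 or 593, and a fit to the 8 libraries alone left 0, with 4009 at an unadjusted p under 0.05. Rescaling FPKM to TPM (an equal sum in each library) gave 2576 calls, 2527 higher and 49 lower, and moved the median change of all genes from -0.02 to 0.08. With no filter on low values 2 genes passed (4420 at an unadjusted p under 0.05). Every call below holds for the fit to 12 libraries and ends in each of the settings with 0, and the 83 called genes recomputed under each setting also lost their call with no filter. These 83 genes kept their direction in all settings.

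**Figure D1:**
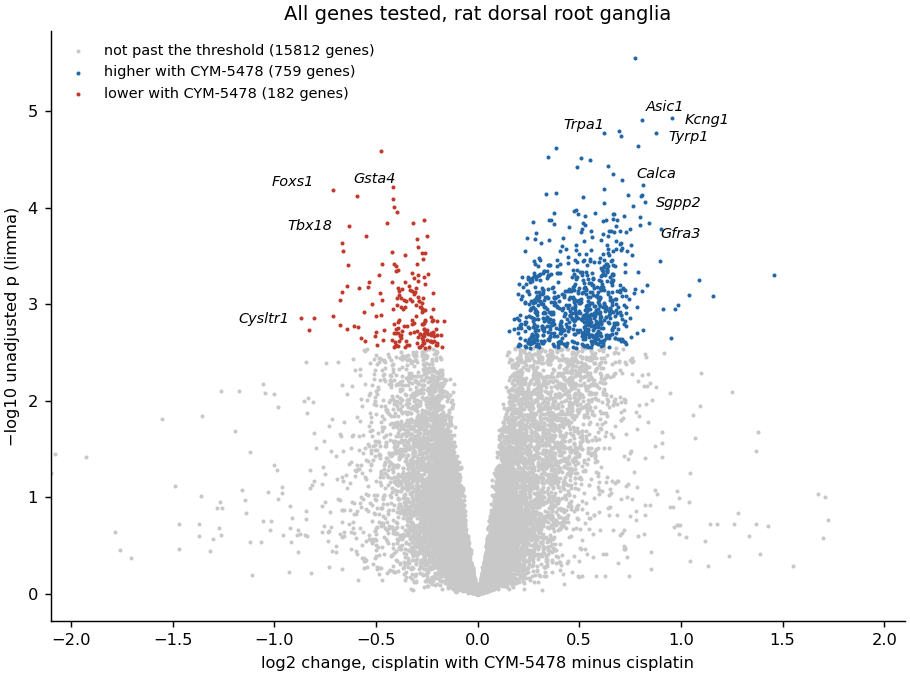
Each point is one of 16753 genes, placed by its log2 change (CYM-5478 group minus cisplatin group, 4 libraries each) and by -log10 of its unadjusted limma p. Blue points are the 759 genes higher and red points the 182 genes lower at an adjusted p under 0.05, and 12 genes, none of them past the threshold, lie beyond the axis at 2.1.

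**Figure D2:**
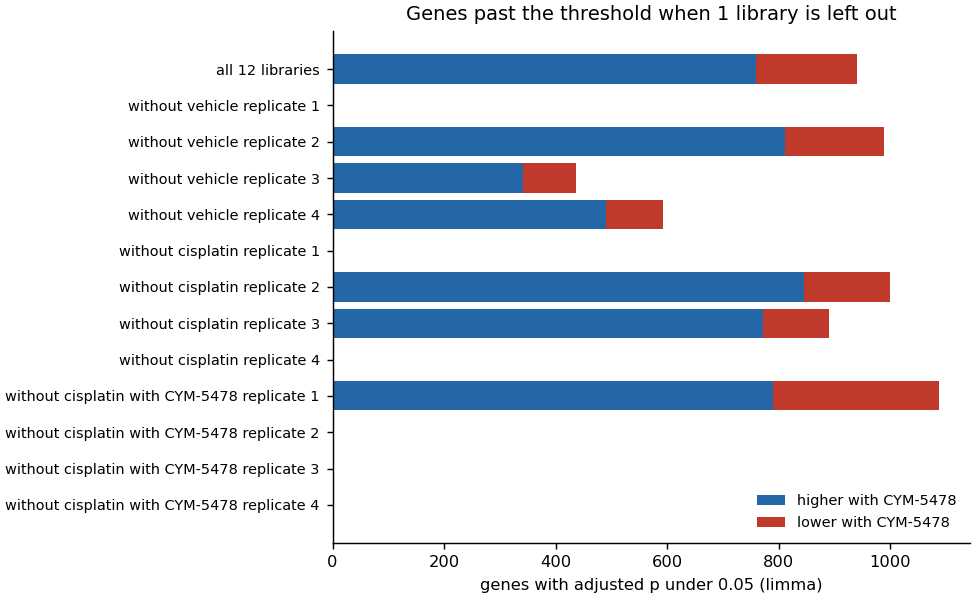
Bars give the number of genes past an adjusted p of 0.05 with all 12 libraries (941) and with each library left out, split into higher (blue) and lower (red). The 6 bars at 0 are those without vehicle replicate 1, cisplatin replicate 1 or 4, or CYM-5478 replicate 2, 3 or 4.

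Pan-neuronal genes, a list of broadly neuronal genes that also holds Prph of small sensory neurons, were higher in the CYM-5478 group. Of 25 pan-neuronal genes tested, 15 rose and 0 fell (4.53% and 1.09% of all genes), all 25 changes were positive, from 0.10 to 0.73, and their median was 0.56 against -0.02 for all genes. Tubb3, the neuronal beta-tubulin, is a standard label of neurons in the ganglion. Its FPKM in replicates 1 to 4 was 375, 578, 589 and 491 with cisplatin and 733, 798, 911 and 754 with CYM-5478, against 771, 1041, 844 and 708 in vehicle. Cisplatin replicate 1 was the lowest library and every CYM-5478 library lay above every cisplatin library. The log2 change was 0.68 (SE 0.15, limma adjusted p = 0.0395). Uchl1, a ubiquitin hydrolase abundant in neurons, had 579, 836, 825 and 686 FPKM with cisplatin, 960.4, 1043, 1204 and 1002 with CYM-5478 and 1080, 1347, 1142 and 1032 in vehicle. Here too the cisplatin libraries were the low ones, without overlap (log2 change 0.55, SE 0.13, limma adjusted p = 0.0406).

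Prph, which encodes the intermediate filament peripherin of small sensory neurons, measured 258, 355, 362 and 330.2 FPKM with cisplatin and 447, 540.5, 641 and 483 with CYM-5478, beside 497, 597, 464 and 450.2 in vehicle. It rose by 0.70 on the log2 scale (SE 0.14, limma adjusted p = 0.0395). Scg2, a granin of dense-core vesicles, had the largest change of the list. Its libraries stood at 27.5, 47.0, 42.0 and 38.2 FPKM with cisplatin and 61.2, 61.8, 68.6 and 60.5 with CYM-5478 (log2 change 0.73, SE 0.14, limma adjusted p = 0.0395), and CYM-5478 replicate 3 was the highest. Pou4f1, the transcription factor Brn3a that maintains sensory neuron identity, had a mean of 13.2 ± 2.17 FPKM with cisplatin, 20.7 ± 2.49 with CYM-5478 and 23.0 ± 3.21 in vehicle (SD, n = 4, as in all means below). Also past the threshold were Eno2, Stmn2, Stmn3, Elavl2, Elavl4, Map2, Mapt, Nsf, Rtn1 and Celf4, with log2 changes of 0.48 to 0.68. FPKM of the 25 genes together ran from 2342 to 3497 with cisplatin, 4137 to 5326 with CYM-5478 and 4181 to 5649 in vehicle. In bulk tissue, fewer neurons and less RNA per neuron cannot be told apart.

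**Figure D3:**
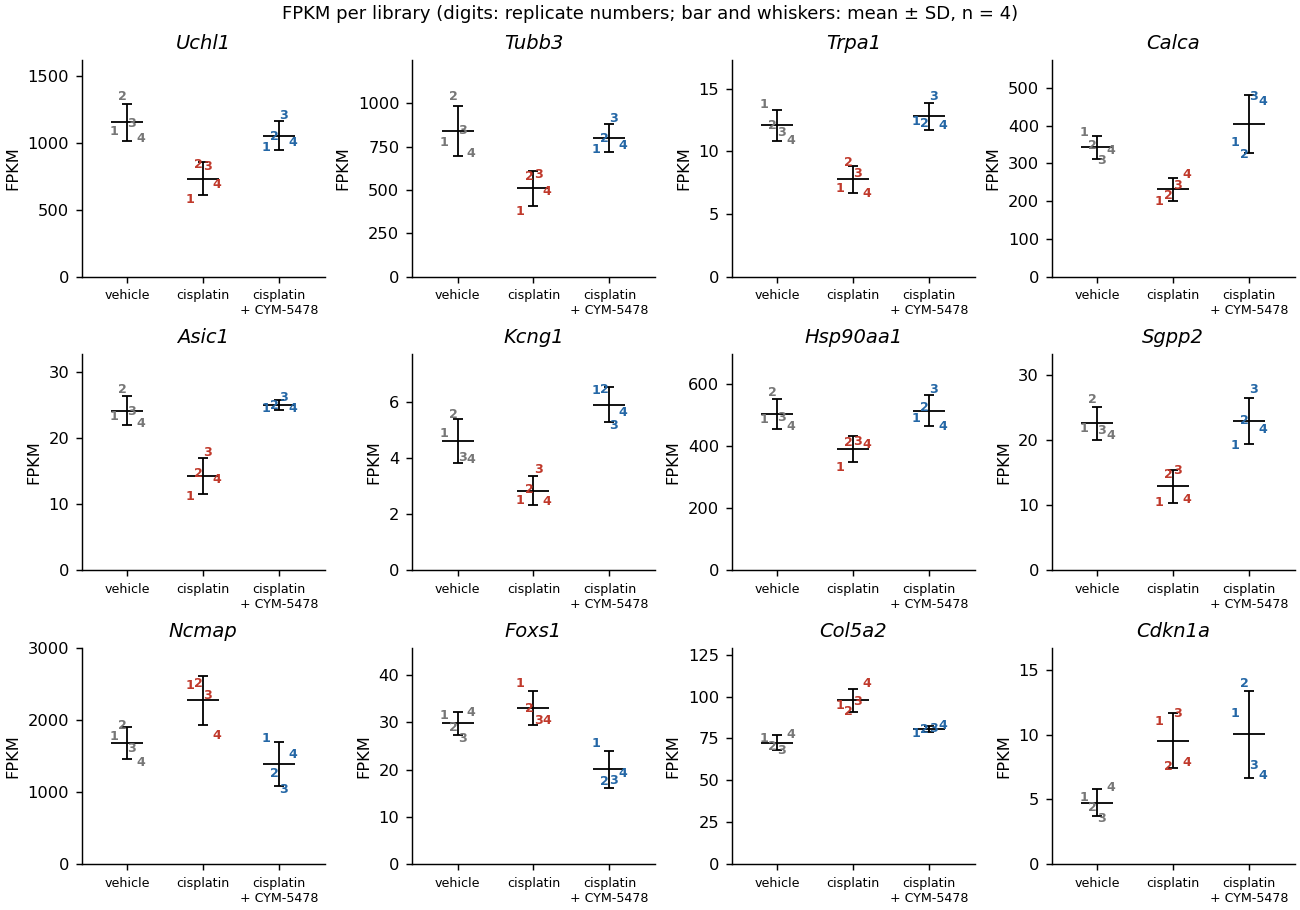
FPKM of 12 genes in each library, with digits for the replicate number and bars for mean ± SD (n = 4), on axes that start at 0. For Uchl1, Tubb3, Trpa1, Calca, Asic1, Kcng1, Hsp90aa1 and Sgpp2 every CYM-5478 library lies above every cisplatin library, for Ncmap, Foxs1 and Col5a2 every one lies below, and for Cdkn1a they overlap.

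Markers of nociceptors, the small neurons that sense damage and heat, rose in part. Of 25 tested, 11 rose and 0 fell, with a median log2 change of 0.54 and a range of -0.07 to 0.84. Calca, which encodes the peptide CGRP, had 199, 216, 240.4 and 270.1 FPKM with cisplatin and 356, 323, 478 and 464 with CYM-5478. All 4 libraries of the CYM-5478 group were above the cisplatin libraries, and replicates 3 and 4 also exceeded the vehicle values of 382, 348, 308 and 335. The change was 0.81 (log2, SE 0.14, limma adjusted p = 0.0395). Trpa1, the ion channel for irritants such as mustard oil, measured 7.05, 9.08, 8.21 and 6.66 FPKM with cisplatin, 12.4, 12.3, 14.4 and 12.1 with CYM-5478 and 13.7, 12.1, 11.5 and 10.9 in vehicle. Its groups did not overlap, CYM-5478 replicate 3 was the highest, and the log2 change was 0.70 (SE 0.10, limma adjusted p = 0.0395). Trpv1, the capsaicin and heat channel, was chosen after its values were seen. It had a mean of 17.8 ± 2.23 FPKM with cisplatin and 26.5 ± 4.44 with CYM-5478 (log2 change 0.56, SE 0.13, limma adjusted p = 0.0406). Neither of its tested transcripts passed alone (limma adjusted p = 0.061 for the more abundant and 0.223 for the other).

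Other nociceptor genes that rose encode receptors, a sodium channel and a second peptide. Scn9a, the sodium channel Nav1.7, went from 30.5 to 45.3 FPKM in the group means (log2 change 0.56), and Tac1, the precursor of substance P, from 69.5 to 106 (0.62). Oprm1, the mu opioid receptor, went from 8.66 to 13.5 FPKM (0.62). Prdm12, a transcription factor needed for nociceptor fate, went from 14.7 to 24.5 (0.71), and Plxnc1, a semaphorin receptor, from 10.3 to 14.98 (0.54). Limma adjusted p ran from 0.0395 to 0.0446 for these 5. Nociceptor markers summed to 794 to 967 FPKM with cisplatin, 1111 to 1581 with CYM-5478 and 1059 to 1319 in vehicle.

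Receptors for neuron survival factors rose in part, and 1 ligand fell. Of 20 neurotrophin and GDNF family genes, 6 rose and 1 fell, with a median of 0.13. Gfra3, the co-receptor for artemin, showed the largest rise of the list. It measured 6.61, 8.59, 9.37 and 8.85 FPKM with cisplatin, 12.9, 15.4, 15.3 and 17.3 with CYM-5478 and 17.1, 11.8, 10.1 and 13.5 in vehicle (log2 change 0.84, SE 0.15, limma adjusted p = 0.0395). Ngfr, the p75 neurotrophin receptor of neurons and Schwann cells, had a mean of 84.3 ± 15.04 FPKM with cisplatin and 127 ± 11.1 with CYM-5478 (log2 change 0.61). Ret, the shared GDNF family receptor (0.49), Ntrk2, the BDNF receptor TrkB (0.36), and Lifr, the receptor for leukemia inhibitory factor (0.33), also rose. Nrtn, which encodes the ligand neurturin, fell from a mean of 6.09 to 3.92 FPKM (log2 change -0.57, limma adjusted p = 0.0457), with 4.19 in vehicle.

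Markers of mechanoreceptors and proprioceptors, the large neurons of touch and position sense, had 5 calls, all higher, among 23 tested, with a median of 0.37. Whether they responded less than nociceptor markers was not tested. Slc17a7, the vesicular glutamate transporter VGLUT1, had 18.1, 29.8, 34.8 and 24.2 FPKM with cisplatin and 41.0, 43.6, 46.6 and 38.1 with CYM-5478, and 41.2, 57.4, 55.4 and 40.4 in vehicle. Cisplatin replicate 1 was the lowest again and the groups did not overlap (log2 change 0.70, SE 0.18, limma adjusted p = 0.0466). Kcnab2, a beta subunit of potassium channels, measured 39.6, 57.3, 57.3 and 47.4 with cisplatin and 71.4, 75.6, 91.9 and 70.9 FPKM with CYM-5478 (log2 change 0.63, SE 0.13, limma adjusted p = 0.0395). Scn8a, the sodium channel Nav1.6 of nodes of Ranvier, had means of 15.4 ± 3.68 and 24.2 ± 2.67 FPKM (log2 change 0.67, limma adjusted p = 0.0421).

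Several ion channel genes were among the 15 largest named rises. Kcng1, a modifier subunit of voltage-gated potassium channels, had the largest named change. It measured 2.47, 2.86, 3.57 and 2.44 FPKM with cisplatin, 6.39, 6.42, 5.16 and 5.62 with CYM-5478 and 4.88, 5.56, 4.02 and 3.93 in vehicle. Replicates 1, 2 and 4 of the CYM-5478 group exceeded all vehicle libraries, and no library overlapped with cisplatin (log2 change 0.96, SE 0.13, limma adjusted p = 0.0395). Asic1, an acid-sensing cation channel, had 11.2, 14.7, 17.7 and 13.7 FPKM with cisplatin and 24.4, 24.8, 26.1 and 24.4 with CYM-5478. The CYM-5478 libraries were close together and at the level of vehicle, 23.1, 27.2, 23.9 and 22.1 (log2 change 0.81, SE 0.11, limma adjusted p = 0.0395). The table has 2 transcripts of Asic1. The first rose from 8.66 ± 0.95 to 16.1 ± 0.72 FPKM (log2 change 0.87, limma adjusted p = 0.00178 over 18809 transcripts), and the other had 5.65 ± 1.86 and 8.82 ± 0.44 FPKM (0.66, limma adjusted p = 0.0735).

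Among 30 potassium channel genes, 8 rose and 0 fell, with a median of 0.50. Kcns3, a modifier subunit, had 9.50, 12.8, 14.9 and 11.7 FPKM with cisplatin and 18.1, 19.7, 23.7 and 20.2 with CYM-5478 (log2 change 0.74, SE 0.12, limma adjusted p = 0.0395). Kcnq5 encodes a subunit of the M current, which holds neurons below firing threshold, and it rose by 0.68 on the log2 scale. Kcnd1 (0.55), Kcna6 (0.54), Kcnk10 (0.54) and Kcnc1 (0.61) rose as well. Outside that list, Kcnh6, an ether-a-go-go related channel, went from 2.85 ± 0.65 to 5.65 ± 0.63 FPKM (log2 change 0.90, limma adjusted p = 0.0395). Kcnc2, of the fast-spiking Kv3 family, went from 1.33 ± 0.22 to 2.67 ± 0.38 FPKM (0.80, limma adjusted p = 0.0395), with CYM-5478 replicate 4 apart from the other 3. Its tested transcripts had low FPKM and went in opposite directions, from 0.36 to 1.53 (1.387, limma adjusted p = 0.0508) and from 0.71 to 0.35 (-0.501, limma adjusted p = 0.517). Jph4, a junctophilin that ties the endoplasmic reticulum to the neuronal cell membrane, had 10.4, 13.8, 8.51 and 11.3 FPKM with cisplatin and 14.7, 21.4, 24.2 and 17.7 with CYM-5478 (log2 change 0.81, SE 0.18, limma adjusted p = 0.0395).

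Genes of synaptic vesicles rose as well, 9 of 26 with 0 lower and a median of 0.54. Syt4, a synaptotagmin, measured 18.8, 28.5, 27.7 and 24.96 FPKM with cisplatin and 38.3, 39.8, 45.8 and 37.3 with CYM-5478 (log2 change 0.70, SE 0.13, limma adjusted p = 0.0395). Syp, the vesicle membrane protein synaptophysin, had means of 79.8 ± 16.3 and 124 ± 14.1 FPKM (0.66), and Syn2, a synapsin, 24.6 ± 3.88 and 37.1 ± 4.53 (0.60). Rab3c, Cadps, Sv2b, Sv2c, Syt11 and Unc13a, all of vesicle docking or priming or of the vesicle membrane, rose by 0.50 to 0.71 on the log2 scale.

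The remaining largest named rises were a mixed set. Gdap1l1, a relative of the neuropathy gene Gdap1, had 4.48, 10.3, 9.52 and 6.23 FPKM with cisplatin, 12.01, 14.2, 15.7 and 14.3 with CYM-5478 and 16.5, 16.8, 15.8 and 11.95 in vehicle (log2 change 0.91, SE 0.21, limma adjusted p = 0.0397). Tyrp1, known as an enzyme of melanin synthesis, had 34.4, 43.2, 48.7 and 31.3 FPKM with cisplatin and 61.4, 71.0, 78.8 and 74.1 with CYM-5478. Each CYM-5478 library of Tyrp1 was above every vehicle library too, where it stood at 61.0, 61.0, 53.9 and 54.1 (log2 change 0.88, SE 0.13, limma adjusted p = 0.0395). Spock1, an extracellular proteoglycan of the testican family, went from 21.6 ± 4.07 to 37.4 ± 3.48 FPKM (0.80), and Trim67, a neuronal ubiquitin ligase, from 3.54 ± 0.71 to 6.42 ± 0.71 (0.80). Fstl5, a follistatin-like protein (0.90), Atp6ap1l (0.95) and Tmem54 (0.79) complete the 15, with limma adjusted p of 0.0395 to 0.046 for these 5.

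**Figure D4:**
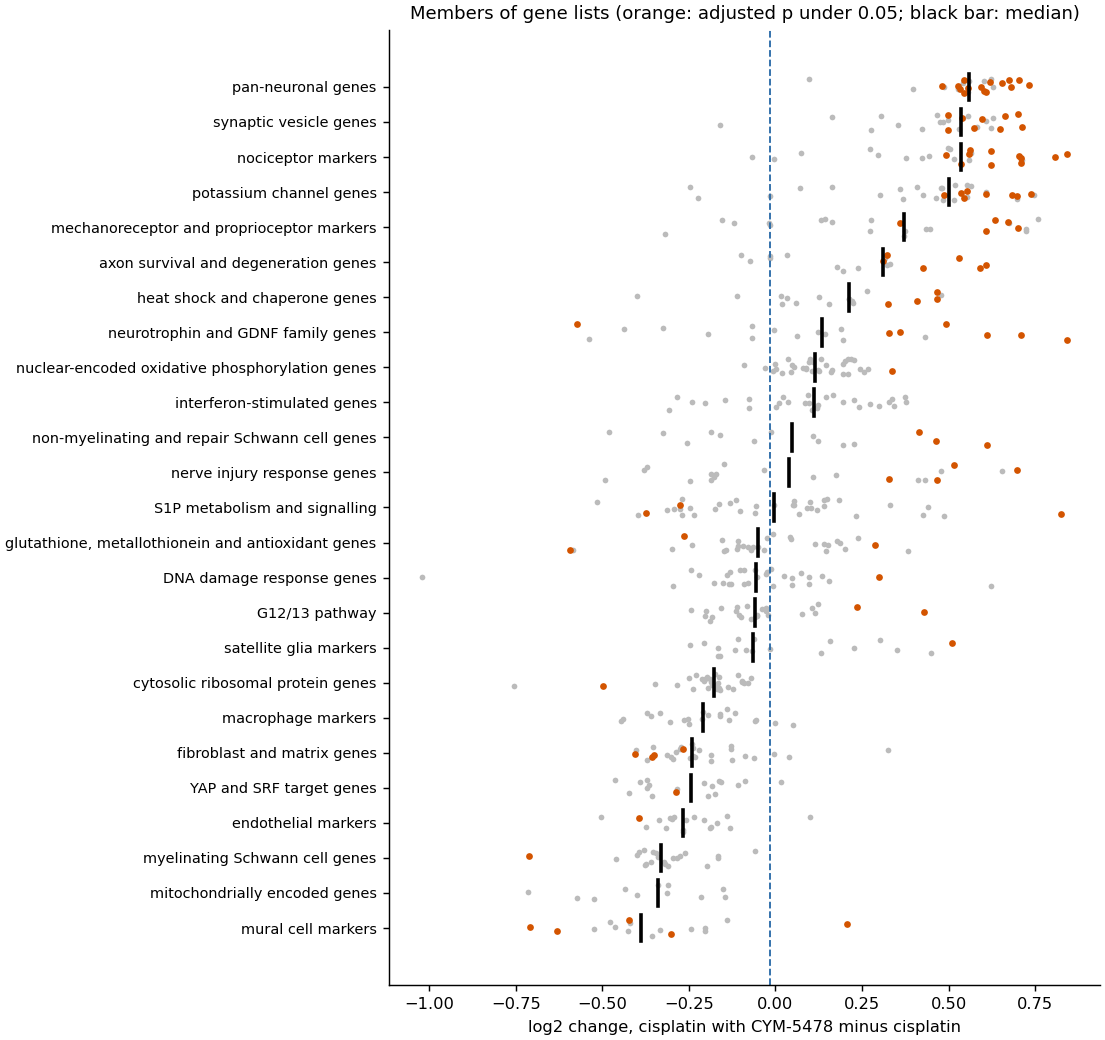
Each point is the log2 change (CYM-5478 group minus cisplatin group) of one tested gene of a list, orange where its limma adjusted p was under 0.05 and grey elsewhere. Black bars are list medians, from 0.56 for pan-neuronal genes to -0.39 for mural cell markers, and the dashed line is the median of all tested genes at -0.02.

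Genes of axon survival and degeneration rose in part, a driver of degeneration among them. Of 17 tested, 6 rose and 0 fell, with a median of 0.31. Sarm1, the NAD hydrolase that executes axon degeneration, had 9.21, 12.2, 12.1 and 10.1 FPKM with cisplatin, 14.1, 15.4, 19.8 and 14.2 with CYM-5478 and 15.3, 19.6, 15.7 and 16.7 in vehicle. Every CYM-5478 library was above the cisplatin libraries (log2 change 0.53, SE 0.12, limma adjusted p = 0.0399). Stmn2, a tubulin-binding protein that supports axon upkeep, went from a mean of 271 to 405 FPKM (0.61). The kinases Mapk10 (0.59) and Map3k13 (0.43), the transport scaffold Mapk8ip3 (0.32) and the protease Capn1 (0.31), which act in axon stress signalling or axon breakdown, were the others. Summed FPKM of the list was 789.6 to 1033 with cisplatin and 1150 to 1338 with CYM-5478.

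The nerve injury response, the program that neurons start after axotomy, showed no common direction. Of 20 genes, 4 rose and 0 fell, the median was 0.04 (-0.149 to 0.154 over the settings run), and 10 changes were positive and 10 negative. Atf3, the transcription factor that marks injured sensory neurons, had 15.03, 8.56, 11.9 and 11.4 FPKM with cisplatin and 10.1, 6.91, 8.30 and 9.93 with CYM-5478, and 10.3, 8.55, 9.53 and 10.6 in vehicle. Cisplatin replicate 1 was the highest, the groups overlapped, and the log2 change of -0.37 did not pass the threshold (95% interval -0.71 to -0.03, limma adjusted p = 0.17). Adcyap1, which encodes the peptide PACAP, had 9.61, 9.47, 8.43 and 8.85 FPKM with cisplatin and 12.4, 13.8, 17.2 and 16.8 with CYM-5478 (log2 change 0.70, SE 0.15, limma adjusted p = 0.0395). Cacna2d1, the calcium channel subunit that gabapentin binds, went from 15.2 ± 1.46 to 21.7 ± 1.92 FPKM (0.52, limma adjusted p = 0.0395). Sprr1a of this list is listed at 0 in every library.

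Chaperone genes of the heat shock response rose in part, 4 of 18 with 0 lower and a median of 0.21. Hsp90aa1, the inducible cytosolic Hsp90, had 329.7, 412, 416 and 404 FPKM with cisplatin, 490.0, 525, 582 and 463 with CYM-5478 and 485, 574, 492 and 464 in vehicle. Cisplatin replicate 1 lay below the other 3 (log2 change 0.41, SE 0.10, limma adjusted p = 0.0412). Bag3, a co-chaperone of selective autophagy, measured 27.0, 35.0, 36.2 and 35.8 FPKM with cisplatin and 39.4, 48.3, 53.2 and 43.8 with CYM-5478 (0.47, SE 0.10, limma adjusted p = 0.0395). Hspb1, the small heat shock protein Hsp27, which is abundant in sensory neurons, had 131 ± 18.7 and 180.4 ± 29.4 FPKM with overlapping libraries (0.47, limma adjusted p = 0.0497), and Stip1, which links Hsp70 to Hsp90, rose by 0.33. Hspa1a and Hspa1b are listed at 0 in every library.

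Energy genes gave 1 call. Of 34 nuclear-encoded genes of oxidative phosphorylation 1 rose, near the 4.53% of all genes that did. Of the changes, 30 were positive, with a median of 0.12. The called gene was Atp5g1, a subunit of the ATP synthase rotor ring, with 84.2, 104, 93.0 and 90.1 FPKM with cisplatin and 114, 111, 120.0 and 121 with CYM-5478 (0.34, SE 0.082, limma adjusted p = 0.0407). Genes encoded in mitochondrial DNA had 0 of 11 past the threshold in limma (4 lower at an unadjusted p under 0.05), and all 11 changes were negative with a median of -0.34 (-0.23 in TPM and -0.023 with quantile normalization). Mt-atp8 shows the spread, at 24159, 35331, 30818 and 37462 FPKM with cisplatin and 19164, 19291, 22612 and 15759 with CYM-5478 (log2 change -0.71, 95% interval -1.27 to -0.16, limma adjusted p = 0.109). Summed FPKM of the mitochondrial genes was 60067 to 85606 with cisplatin, 45497 to 59497 with CYM-5478 and 49664 to 60679 in vehicle.

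Of 31 cytosolic ribosomal protein genes 1 fell, all 31 changes were negative and the median was -0.18 (-0.069 in TPM). Rps27, a protein of the small subunit, had 1093, 1350, 1093 and 1557 FPKM with cisplatin, 768, 983, 953 and 851 with CYM-5478 and 979, 852, 849.5 and 838 in vehicle (-0.50, SE 0.12, limma adjusted p = 0.044). Rps29, outside that list and one of the 15 largest named falls, had 56.0, 70.5, 54.1 and 55.3 FPKM with cisplatin and 35.1, 33.1, 47.5 and 31.0 with CYM-5478 (-0.68, SE 0.15, limma adjusted p = 0.0395), and cisplatin replicate 2 stood above the other 3. Ribosomal protein genes have many near-identical pseudogene copies, and how the submitters shared reads between copies is not given in the sources used here, so these values are uncertain.

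Glial genes went in more than one direction. Of 18 satellite glia markers 1 rose and 0 fell, 11 changes were negative and 7 positive, and the median was -0.07 (0.04 in TPM). Aldoc, a glycolytic enzyme of glia that neurons also express, had 92.1, 114, 125 and 106 FPKM with cisplatin and 149, 148, 163 and 156 with CYM-5478 (0.51, SE 0.11, limma adjusted p = 0.0395). Kcnj10, the glial potassium channel Kir4.1, had 11.9 ± 1.12 and 14.7 ± 1.37 FPKM, and 16.9 ± 1.04 in vehicle (0.30, 95% interval 0.12 to 0.48, limma adjusted p = 0.0558), which missed the threshold. Slc1a3, the glial glutamate transporter GLAST, had 12.8, 10.7, 12.6 and 11.0 FPKM with cisplatin, 10.5, 8.87, 10.2 and 9.54 with CYM-5478 and 10.4, 9.12, 7.53 and 9.88 in vehicle. Its CYM-5478 libraries were all below the cisplatin libraries, and it missed the threshold too (-0.25, 95% interval -0.46 to -0.03, limma adjusted p = 0.153).

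Of 22 genes of myelinating Schwann cells 1 fell, all 22 changes were negative and the median was -0.33 (-0.22 in TPM). Ncmap, a protein of non-compact peripheral myelin, had 2472, 2503, 2340 and 1777 FPKM with cisplatin, 1743, 1256, 1039 and 1522 with CYM-5478 and 1774, 1927, 1599 and 1405 in vehicle. Each cisplatin library was above each CYM-5478 library, with cisplatin replicate 4 the lowest of its group (-0.71, SE 0.17, limma adjusted p = 0.0406). Gldn, gliomedin of the Schwann cell microvilli at nodes of Ranvier, had 74.4 ± 12.5 and 53.6 ± 9.35 FPKM and missed the threshold (-0.46, 95% interval -0.74 to -0.18, limma adjusted p = 0.0565). Fxyd6, a regulator of the sodium pump that is not on that list, had 1138, 1452, 1391 and 1023 FPKM with cisplatin and 915, 711, 754 and 919 with CYM-5478 (-0.58, SE 0.13, limma adjusted p = 0.0395). Of 14 genes of non-myelinating and repair Schwann cells, 3 rose and 0 fell, with a median of 0.05 (-0.051 to 0.155 over the settings run). Those 3 were Ngfr, L1cam (0.47) and Cdh2 (0.41), a neurotrophin receptor and adhesion molecules that neurons also express.

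Genes of connective tissue fell in part. Of 29 fibroblast and matrix genes, 4 fell and 0 rose in the FPKM fit (0 fell in TPM), 27 changes were negative and the median was -0.24 (-0.13 in TPM). Col5a2, a fibrillar collagen chain, had 94.9, 91.3, 97.0 and 108 FPKM with cisplatin and 78.2, 80.1, 80.8 and 82.6 with CYM-5478, and 75.1, 70.1, 67.7 and 77.5 in vehicle. The CYM-5478 libraries were tightly grouped, below the cisplatin libraries and above the vehicle libraries (-0.27, SE 0.06, limma adjusted p = 0.0395). Pdgfra, the PDGF receptor of fibroblasts, measured 78.3, 68.2, 67.3 and 72.1 with cisplatin and 57.4, 54.2, 55.7 and 54.2 FPKM with CYM-5478 (-0.35, SE 0.08, limma adjusted p = 0.0395). Col15a1, a basement membrane collagen, fell by 0.41 and Mmp2, a gelatinase, by 0.36 on the log2 scale. Lect1, which encodes the matrix protein chondromodulin, fell from 189.9 ± 17.8 to 121 ± 16.7 FPKM (-0.64), and Sox9, a transcription factor of cartilage and glia, from 14.1 ± 2.22 to 8.999 ± 1.05 (-0.61). The matrix list summed to 8111 to 9115 FPKM with cisplatin, 6559 to 7071 with CYM-5478 and 6180 to 7263 in vehicle.

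Genes of the vessel wall fell in part. Of 16 mural cell markers (pericytes and smooth muscle), 4 fell and 1 rose, with a median of -0.39. Foxs1, a forkhead factor known in mouse from pericytes and from early sensory neurons, had 38.2, 33.0, 30.4 and 30.5 FPKM with cisplatin and 25.6, 17.6, 17.6 and 19.3 with CYM-5478. Vehicle libraries stood at 31.5, 29.0, 26.6 and 32.1, above every CYM-5478 library. The log2 change was -0.71 against cisplatin (SE 0.12, limma adjusted p = 0.0395) and -0.57 against vehicle, the latter not past the threshold (limma adjusted p = 0.697). Tbx18, a T-box factor of mouse pericytes, measured 11.6, 10.4, 11.6 and 8.27 with cisplatin, 6.11, 6.92, 6.82 and 6.04 FPKM with CYM-5478 and 10.1, 9.79, 7.74 and 7.98 in vehicle. It too was lowest in the 4 CYM-5478 libraries (-0.63, SE 0.12, limma adjusted p = 0.0395, and -0.42 against vehicle, limma adjusted p = 0.735). Rgs5, a regulator of G protein signalling in pericytes, fell by 0.42 and Cspg4, the proteoglycan NG2, by 0.30. Mcam, an adhesion molecule of vessels that other cell types also carry, rose by 0.21. The mural score was -0.41 in CYM-5478 replicate 3 and -0.08 to -0.05 in the other 3 libraries of that group, and without that library 0 genes of the table passed the threshold in limma (3011 at an unadjusted p under 0.05).

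Of 19 endothelial markers 1 fell, with a median of -0.27 (-0.16 in TPM) and 18 negative changes. It was Cldn5, the tight junction protein claudin-5, at 60.1, 48.6, 55.7 and 49.4 FPKM with cisplatin, 41.2, 42.8, 33.8 and 43.4 with CYM-5478 and 40.3, 45.2, 38.9 and 43.4 in vehicle (-0.40, SE 0.091, limma adjusted p = 0.0397). Endothelial markers summed to 329 to 445 FPKM with cisplatin and 262 to 339.5 with CYM-5478. In the same libraries the pan-neuronal score ran from -0.94 to -0.40 with cisplatin and from -0.20 to 0.21 with CYM-5478. With that score, which itself differs between the groups, as a covariate, 0 genes passed the threshold in limma (791 at an unadjusted p under 0.05). The median of myelinating Schwann cell genes went from -0.33 to -0.04 and that of fibroblast and matrix genes from -0.24 to -0.17. That of mural cell markers went from -0.39 to -0.33 and that of nociceptor markers from 0.54 to 0.06. Synaptic vesicle genes went from 0.54 to -0.021, potassium channel genes from 0.50 to 0.025 and mechanoreceptor and proprioceptor markers from 0.37 to -0.043. Axon survival and degeneration genes went from 0.31 to 0.063 and chaperone genes from 0.21 to 0.026. Nuclear-encoded oxidative phosphorylation genes went from 0.12 to -0.082. Mitochondrially encoded genes moved further from 0, from -0.34 to -0.61.

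**Figure D5:**
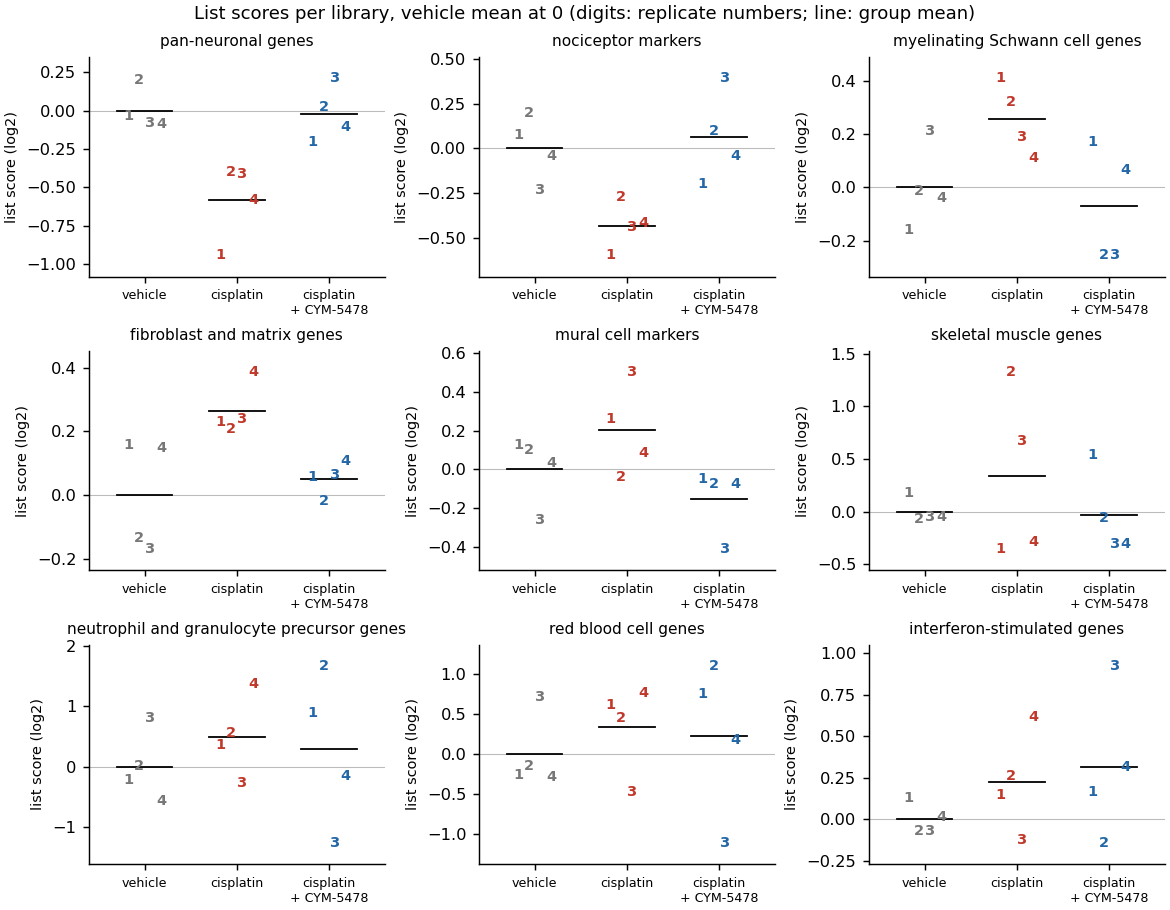
List scores, the mean over a list of the log2 difference from the vehicle mean, for each library, with digits for the replicate number and a line at each group mean. The pan-neuronal score runs from -0.94 to -0.40 with cisplatin and from -0.20 to 0.21 with CYM-5478, while the muscle, neutrophil, red blood cell and interferon scores overlap between these groups.

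Immune genes gave few calls. In limma 0 of 21 macrophage markers passed the threshold (4 lower at an unadjusted p under 0.05), 20 changes were negative and the median was -0.21 (-0.10 in TPM). Emr1, which encodes the macrophage marker F4/80, had 13.2, 15.8, 16.0 and 17.4 FPKM with cisplatin and 13.6, 11.4, 12.5 and 12.1 with CYM-5478, with overlap (-0.30, 95% interval -0.51 to -0.10, limma adjusted p = 0.0784). Of 30 interferon-stimulated genes 0 passed in limma (1 at an unadjusted p under 0.05), with a median of 0.11 that turned to -0.10 without CYM-5478 replicate 3, -0.012 without cisplatin replicate 3, -0.046 without cisplatin replicates 2 and 3 and -0.165 with the covariate. Their score was 0.93 in CYM-5478 replicate 3 and -0.14 to 0.31 in the other 3. Cysltr1, a receptor for the inflammatory cysteinyl leukotrienes, fell from 1.81, 3.16, 2.94 and 2.22 to 1.24, 0.86, 1.31 and 1.43 FPKM (-0.81, SE 0.19, limma adjusted p = 0.0406). Irak4, the kinase below Toll-like and interleukin-1 receptors, was chosen after its values were seen. It had 5.11, 3.46, 4.57 and 4.46 FPKM with cisplatin, 2.68, 2.91, 3.03 and 2.58 with CYM-5478 and 4.93, 4.82, 4.38 and 4.79 in vehicle, lowest in all 4 CYM-5478 libraries (-0.55, SE 0.10, limma adjusted p = 0.0395, and -0.66 against vehicle, limma adjusted p = 0.631). Neutrophil, lymphocyte, red blood cell and skeletal muscle lists had 0 calls among 21, 13, 13 and 19 genes in limma (0, 0, 1 and 0 at an unadjusted p under 0.05).

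The remaining largest named falls had no common list. Lamp3, a lysosomal membrane protein of mature dendritic cells, went from 1.89 ± 0.40 to 0.98 ± 0.087 FPKM (-0.67). Calr4, a relative of the endoplasmic reticulum chaperone calreticulin, went from 3.10 ± 0.33 to 1.76 ± 0.21 (-0.66). Serpinb6b, a protease inhibitor, went from 3.08 ± 0.21 to 1.81 ± 0.44 (-0.64), and Xkr7 from 22.9 ± 2.30 to 15.1 ± 2.96 (-0.59). Limma adjusted p was 0.0395 to 0.0425 for these 4. Tmem216, a protein of the ciliary transition zone, had 20.3, 23.0, 15.7 and 21.2 FPKM with cisplatin, 11.9, 9.21, 13.2 and 14.99 with CYM-5478 and 17.5, 19.3, 14.1 and 21.9 in vehicle (-0.68, SE 0.17, limma adjusted p = 0.042). It stood below vehicle by 0.54 on the log2 scale, without passing the threshold (limma adjusted p = 0.803).

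Genes of the DNA damage response, which cisplatin is known to start, gave 1 call. Cdkn1a, which encodes the cell cycle inhibitor p21, had 11.0, 7.56, 11.7 and 7.86 FPKM with cisplatin, 11.7, 14.0, 7.64 and 6.82 with CYM-5478 and 5.11, 4.38, 3.50 and 5.95 in vehicle. Every library of both cisplatin-treated groups was above every vehicle library, and those groups overlapped each other. The log2 change with CYM-5478 was 0.05, which changes sign when single libraries are left out (95% interval -0.46 to 0.55, limma adjusted p = 0.924). Of 30 DNA damage response genes 1 rose and 0 fell, beside 4.53% and 1.09% of all genes, with a median of -0.06 (0.05 in TPM). The called gene was Zmat3, an RNA-binding protein induced by DNA damage, at 10.8, 11.9, 12.5 and 11.0 FPKM with cisplatin, 14.0, 14.4, 14.7 and 13.8 with CYM-5478 and 14.9, 15.6, 13.4 and 14.1 in vehicle (0.30, SE 0.063, limma adjusted p = 0.0395).

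The receptor that CYM-5478 targets missed the threshold. S1pr2 had 17.4, 13.7, 14.7 and 17.1 FPKM with cisplatin, 13.5, 11.2, 12.7 and 12.3 with CYM-5478 and 13.9, 12.6, 13.6 and 15.1 in vehicle. The CYM-5478 libraries were all below the cisplatin libraries (-0.31, 95% interval -0.51 to -0.12, limma adjusted p = 0.0593). Among these receptors S1pr3 had the highest mean FPKM, at 28.1 ± 4.16 and 28.8 ± 3.24 (0.05, 95% interval -0.23 to 0.33, limma adjusted p = 0.839). S1pr1, at 9.46 ± 0.67 and 8.28 ± 0.89 FPKM (-0.17, 95% interval -0.44 to 0.09), and S1pr4, at 2.37 ± 0.97 and 1.86 ± 0.90 (-0.29, 95% interval -0.99 to 0.40), did not pass either. S1pr5, at 0.41 ± 0.13 and 0.35 ± 0.24 FPKM, was under the filter.

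Of 37 genes of sphingosine 1-phosphate metabolism and signalling, 1 rose and 2 fell, beside 4.53% and 1.09% of all genes. Their median was -0.005 (0.099 in TPM). Sgpp2, a phosphatase that removes the phosphate of sphingosine 1-phosphate, had 10.5, 14.8, 15.4 and 10.9 FPKM with cisplatin, 19.2, 23.0, 27.7 and 21.7 with CYM-5478 and 21.8, 26.3, 21.6 and 20.7 in vehicle. Its cisplatin libraries were the low ones, without overlap (0.82, SE 0.14, limma adjusted p = 0.0395). Acer3, a ceramidase that frees sphingosine, fell from 77.1, 83.8, 68.0 and 72.0 to 63.6, 53.4, 57.9 and 55.1 FPKM (-0.37, SE 0.082, limma adjusted p = 0.0395). Neither of its transcripts passed alone. The more abundant had 49.7 ± 9.90 and 44.0 ± 3.95 FPKM (-0.145, limma adjusted p = 0.613). The other had 25.6 ± 8.34 and 13.5 ± 5.36 (-0.903, limma adjusted p = 0.109). Ppap2b, a lipid phosphatase that acts on extracellular lysophospholipids, fell from 124 ± 5.13 to 102 ± 1.88 FPKM (-0.28, limma adjusted p = 0.0416).

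Of 25 genes of the G12/13 pathway, 2 rose and 0 fell, with a median of -0.06 (0.05 in TPM). Limk1, a kinase that controls actin turnover, had 23.1, 30.4, 30.0 and 28.2 FPKM with cisplatin, 34.7, 37.5, 42.3 and 35.0 with CYM-5478 and 40.6, 45.2, 44.8 and 38.5 in vehicle (0.43, SE 0.095, limma adjusted p = 0.0395). Arhgef11, a guanine nucleotide exchange factor activated by G12/13, rose by 0.24 (SE 0.058, limma adjusted p = 0.0412). Its relative Arhgef12 had 62.4 ± 1.32 and 57.1 ± 1.10 FPKM (-0.12, 95% interval -0.19 to -0.04, limma adjusted p = 0.0725). Among 18 targets of YAP and SRF, transcriptional regulators that respond to the state of actin, 1 fell, the tropomyosin Tpm4 (-0.29), 17 changes were negative and the median was -0.25 (-0.16 in TPM).

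Among 31 genes of glutathione, metallothioneins and antioxidant defence, 1 rose and 2 fell, with a median of -0.05 (0.06 in TPM). Gsta4, the glutathione transferase that clears 4-hydroxynonenal, had 50.7, 44.1, 46.4 and 57.1 FPKM with cisplatin, 30.1, 36.7, 34.4 and 28.5 with CYM-5478 and 34.8, 38.7, 41.8 and 41.7 in vehicle (-0.59, SE 0.10, limma adjusted p = 0.0395). Sod3, the extracellular superoxide dismutase, fell by 0.26. Gclm, the modifier subunit of the first enzyme of glutathione synthesis, measured 33.4, 33.7, 35.5 and 33.3 with cisplatin and 39.8, 41.0, 41.6 and 42.6 FPKM with CYM-5478 (0.29, SE 0.054, limma adjusted p = 0.0395). Its catalytic partner Gclc had 15.03, 14.9, 15.6 and 15.8 FPKM with cisplatin and 17.1, 19.1, 16.9 and 17.3 with CYM-5478, without overlap, and missed the threshold (0.20, 95% interval 0.07 to 0.33, limma adjusted p = 0.0645).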

How the data were processed

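Ribosomal RNA was removed from total RNA of 12 rat dorsal root ganglion samples before strand-specific library preparation, per the labels' protocols. The authors deposited FPKM (fragments scaled by transcript length and library size) for 30275 transcripts. The program that computed it is not given in the sources used here. Among the tools in the submitters' processing notes are the aligners STAR 2.7.8a and Bowtie2 2.0.6, with DESeq2 and the build Rnor_6.0, all with no stated role. FPKM hold no counts, so no count model was used and depth is known only in relative terms.

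FPKM were summed over the transcripts of each of 25252 genes and scaled by median ratios over genes of mean 1 FPKM or more (factors 0.9983 to 1.0118). Genes of mean 0.5 FPKM or more were kept, 16753 in all. They were analysed as log2(FPKM + 0.5) with limma 3.58.1 (R 4.3.3), with 3 groups of 4 libraries, a variance trend, 9 residual degrees of freedom and Benjamini-Hochberg adjustment at 0.05. Fold changes on this scale understate those of low genes. All 3 groups share 1 estimate of the spread, so vehicle libraries bear on the calls. Groups came from the labels, and replicates are numbered 1 to 4 as in the sample descriptions.

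The text names the 15 largest rises and 15 largest falls among called genes whose libraries do not overlap. It adds, for each of 25 gene lists, at most 4 genes by p, other called members of those lists, and S1pr1 to S1pr5, Uchl1, Tubb3, Atf3 and Cdkn1a. Some of these genes are not reported here. Clone-named genes (9 among the rises, 3 among the falls) are not described. Trpv1 and Irak4 were added after their values were seen. The comparison, members and lists were chosen with earlier results of these data known. Of 991 list symbols, 948 matched by symbol, 21 by synonym and 22 did not match.

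The procedure was tested on simulated data of independent genes. It recovered 67 of 100 changes of 1.5-fold and 89 of 100 of 2-fold, with 5 false calls among 161. Genes that vary together were not simulated, so the test cannot show how the procedure handles them. Alternatives varied the pseudocount, filter, scaling, variance model, blocks by replicate number and the libraries used.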

Additional observations from a re-analysis of the deposited data

Results flagged for a closer look

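In 17 of 312 groups of 4 values checked, 1 library stood apart from the other 3. That is near the share of about 1 in 20 that chance gives for independent groups. These groups share libraries, and some share genes, so the count cannot show whether a library has a trait. The cases are listed as a description. CYM-5478 replicate 3 was high for Scg2 (68.6 FPKM, others 60.5 to 61.8) and Trpa1 (14.4, others 12.1 to 12.4). The same library was high for the scores of mechanoreceptor and proprioceptor markers (-0.015, others -0.172 to -0.146), axon survival genes (0.095, others -0.023 to -0.007) and neurotrophin and GDNF family genes (0.061, others -0.060 to -0.050). It was low for the mural cell score (-0.408, others -0.077 to -0.047).

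CYM-5478 replicate 4 stood apart for Kcnc2 (3.25 FPKM, others 2.47 to 2.503) and for the heat shock score (-0.063, others 0.083 to 0.109). Cisplatin replicate 1 was low for Bag3 (27.0 FPKM, others 35.0 to 36.2), Hsp90aa1 (329.7, others 404 to 416) and the score of nuclear-encoded oxidative phosphorylation genes (-0.233, others -0.054 to -0.040), and high for Mcam (75.2, others 67.3 to 68.0). Cisplatin replicate 2 was high for Rps29 (70.5 FPKM, others 54.1 to 56.0). Cisplatin replicate 3 was high for Serpinb6b (3.39 FPKM, others 2.93 to 3.01), Ntrk2 (18.5, others 15.2 to 15.7) and the score of non-myelinating and repair Schwann cell genes (-0.059, others -0.125 to -0.115). The summed FPKM of CYM-5478 replicate 2 was 626.3 in units of 1000, above the other 3 libraries of its group.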

How the results depend on the processing

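The 941 calls (759 higher, 182 lower) became 0 in limma with 8 libraries (4009 genes at an unadjusted p under 0.05), with a replicate block by title numbers (3600), without CYM-5478 replicates 2 and 3 (2068) and with a covariate for the pan-neuronal score (791). The last 2 of these settings, and 1 without cisplatin replicates 2 and 3 (1328 calls, 1178 higher), were chosen after seeing the data. Leaving out 1 library gave 0 to 1088 calls, 0 to 846 higher and 0 to 299 lower. No filter gave 2, both higher and 0 lower. TPM gave 2576 (2527 higher, 49 lower), array weights 452 (347 and 105), single transcripts 675 of 18809 with 117 lower, and a replicate block by description numbers 1304. Deviations of same-numbered libraries correlated at -0.096 to 0.154 by description numbers and -0.060 to 0.098 by title numbers. Pairs that did not share a description number ran from -0.141 to 0.145. So few pairs cannot show whether the numbers pair the libraries. The causes were not tested. The other settings of pseudocount, filter, scaling and variance gave 866 to 1147 calls. The difference in summed FPKM was, in units of 1000, -30.987 without mitochondrially encoded genes, -24.365 without the 10 genes of highest mean and -45.729 to -58.792 with 1 library left out.

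No called named gene reversed. The log2 change of Cdkn1a was -0.005 with array weights, -0.049 with the title block, -0.048 and -0.027 without cisplatin replicate 2 or 4, -0.041 and -0.123 without CYM-5478 replicate 1 or 2, -0.123 to 0.203 over all libraries left out in turn, and -0.057 without CYM-5478 replicates 2 and 3. That of S1pr3 was -0.001 to 0.148 with 1 library left out (lowest without CYM-5478 replicate 4) and -0.003 without cisplatin replicates 2 and 3. With the covariate, Gldn was at 0.007, Laptm5 at 0.102, Ifi27 at -0.103, Perp at -0.082, S1pr4 at 0.426 and Atf3 at 0.162. Absolute depth is unknown, so no limit by counts was set.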

Other observations

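A few genes outside the groups above also passed the threshold in limma. Over all tested genes 5.62% passed, so 1 call in a list of 21 to 35 genes is near that share. Jag2, a Notch ligand, rose from a mean of 9.56 FPKM with cisplatin to 13.5 with CYM-5478 (log2 change 0.48, adjusted p = 0.0395), with 15.2 in vehicle, and was the 1 call among 21 Notch signalling genes. Bid, which links death receptors to mitochondria, rose from 11.3 to 15.3 FPKM (0.43, limma adjusted p = 0.0404), the 1 call among 25 genes of the BCL2 family and caspases. Asns, asparagine synthetase, rose from 18.3 to 26.1 FPKM (0.52, limma adjusted p = 0.0395), the 1 call among 25 integrated stress and unfolded protein genes. Nr3c1, the glucocorticoid receptor, fell from 72.7 to 61.5 FPKM (-0.23, limma adjusted p = 0.0442), the 1 call among 21 glucocorticoid-responsive genes. Fancf, of the Fanconi crosslink repair complex, fell from 8.27 to 6.12 FPKM (-0.41, limma adjusted p = 0.0472), the 1 call among 35 repair genes. In autophagy and lysosome genes, Atp6v1h (0.32) and Ctsb (0.23) rose and Wipi1 fell (-0.37), 3 of 24. In limma 0 of 22 cholesterol synthesis, 16 antigen presentation, 12 adipocyte, 28 NF-kB and cytokine, 18 drug transporter, 18 circadian clock, 28 immediate early and 32 cell cycle genes passed (5, 2, 2, 5, 3, 1, 5 and 2 at an unadjusted p under 0.05).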
